A study of Mus musculus with 8 samples.

Results

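The livers compared here came from mice given the Wnt secretion inhibitor LGK974 and then lipopolysaccharide (LPS), and from mice given saline. The members are 4 of the 8 sequenced samples, 2 of the LGK974 group and 2 of the control group, chosen by their labels. The genes are the 21566 autosomal rows, of 23282 rows in the count table, whose gene symbols follow the genomic order of their neighbours. Of these rows 11835 passed the filter on low counts and were tested. The question was which programs remained changed from saline livers in mice that had received the drug.

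All mice were C57BL/6, labelled as male and 4 weeks old. Control mice received saline. Endotoxemic mice received LPS at 25 mg/kg by intraperitoneal injection. The LPS was of Klebsiella pneumoniae. For the LGK974 group the sample label names only LGK974, and the methods state that LGK974 was injected before LPS. None of the libraries analysed here came from mice given LGK974 without LPS, so these counts do not hold the effect of the drug alone. No source says how many mice stand behind a library or whether 2 libraries of a group came from separate mice, so each p-value measures the spread between libraries, which may be technical.

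LPS is the outer membrane component of gram-negative bacteria that Toll-like receptor 4 recognises. In liver it starts NF-κB and interferon signaling, and hepatocytes respond by secreting acute-phase proteins while lowering many enzymes of drug, bile acid and sugar metabolism. LGK974 inhibits Porcupine, the acyltransferase that lipidates Wnt proteins so that they can be secreted. In the resting liver, Wnt proteins from endothelial cells around the central vein keep a set of pericentral genes on in the neighbouring hepatocytes.

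The libraries were made with a kit that reads the 3′ ends of transcripts, and total counts ranged from 9142116 to 15222439. Endotoxemic libraries 3 and 4 held the same counts on all rows as libraries 1 and 2, so each pair was counted as 1 sample and every group has n = 2. The control and endotoxemic libraries did not match the male label. They held between 1171 and 3115 counts of Xist, the RNA that silences an X chromosome in females, and 0, 2, 0 and 0 counts in all on Y-linked genes. The LGK974 libraries held 3 and 7 counts of Xist and 2195 and 1775 Y-linked counts. In every difference between LGK974 and control livers, and between LGK974 and endotoxemic livers, the drug and the sex of the mice cannot be told apart. The comparison of LPS with saline does not carry that difference. Rows whose symbols broke the genomic order held 5.85% to 5.93% of the counts in the control libraries and 12.5% to 14.9% in the treated libraries, and were left out. These rows included Tnf, Il6, Il1b, Il10, Rela, Saa1, Saa2, Crp, Icam1 and 21 of the 24 chemokines listed, so the best-known cytokine, chemokine and serum amyloid genes are not described.

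Many genes differed from saline livers in mice that had received the drug and LPS. Against control livers, 1853 of the 11835 tested genes (15.7%) were higher and 2002 (16.9%) were lower in LGK974 livers (edgeR quasi-likelihood test, adjusted p under 0.05), and 608 of the rises and 673 of the falls exceeded 4-fold. In endotoxemic livers 2366 genes (20%) were higher and 2634 (22.3%) lower than in the same control libraries, so the comparisons share their controls and their values are set side by side without an overlap. Tested directly, LGK974 livers differed from endotoxemic livers in far fewer genes, with 329 (2.78%) higher and 330 (2.79%) lower. The median log2 fold change over all tested genes was 0.03 in each of the 3 comparisons, against which the medians of gene programs below are read. With control library 1 left out the calls against control fell to 836 higher and 1141 lower, and with control library 2 left out to 918 and 1149. The direct comparison of the treated groups gave 122 and 163 without control library 1, 126 and 162 without control library 2, 23 and 41 without endotoxemic library 1, 29 and 33 without endotoxemic library 2, 1087 and 1014 without LGK974 library 1 and 657 and 577 without LGK974 library 2.

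**Figure D1:**
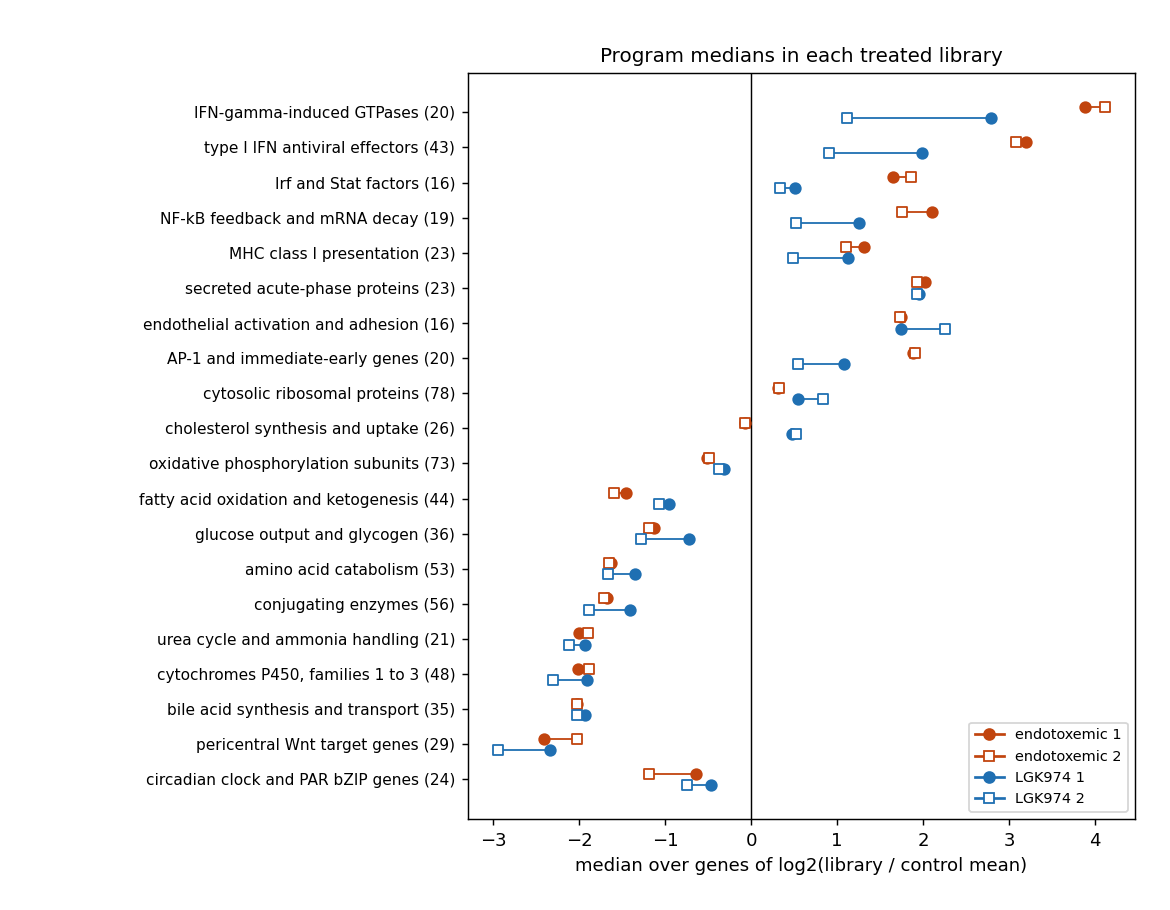
Median over the tested genes of each program of the log2 ratio of a library's normalised count to the control mean, on the horizontal axis, for the 4 treated libraries. Circles are library 1, open squares library 2, and the number of tested genes stands beside each name. Acute-phase genes sit near 2 in all 4 libraries, while the interferon programs sit lower in LGK974 than in endotoxemic libraries, and lowest in LGK974 library 2.

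Secreted acute-phase proteins remained changed under the drug. Of 23 tested members 15 were higher and 5 lower in LGK974 than in control livers, with a median log2 fold change of 1.99, and the endotoxemic livers gave 15, 4 and 2.11. By the direct test 1 member, Hamp, differed between the treated groups. In this table, 15 of the 38 listed acute-phase rows were out of order and were not used. Since these are whole-liver samples, a change in the number of cells of a type and a change in RNA per cell cannot be told apart.

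Lipocalin 2 (Lcn2), which binds bacterial siderophores, stood at 22.7 and 15.4 normalised CPM (read counts scaled to the depth of each library) in control libraries 1 and 2, 3823 and 5346 in the endotoxemic and 3206 and 3256 in the LGK974 libraries. All treated libraries lay far above both controls, and the LGK974 pair lay below the endotoxemic pair. Its log2 fold change from control was 7.41 ± 0.32 (SE, edgeR adjusted p = 2.78e-06). Serum amyloid P component (Apcs), a pentraxin of the innate response, stood at 111 and 109 CPM in control, 2548 and 2547 in endotoxemic and 1936 and 2126 in LGK974 livers, a change of 4.21 ± 0.20 (SE, edgeR adjusted p = 3.86e-06). The proteinase inhibitor alpha-2-macroglobulin (A2m) rose from 6 and 1 counts in the controls to 148 and 236 CPM under the drug, beside 138 and 141 CPM with LPS alone. For A2m the LGK974 libraries were the highest of all, and for Apcs the endotoxemic libraries were. The difference between the treated groups did not pass the test for Lcn2, Apcs or A2m.

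Carriers and clotting substrates rose alongside them. Hemopexin (Hpx), which clears free heme, changed by 2.77 under the drug and 2.80 with LPS alone. The 3 fibrinogen chains Fga, Fgb and Fgg changed by 2.37, 1.99 and 2.17 on the log2 scale under the drug. The leucine-rich glycoprotein Lrg1 stood at 546 and 503 CPM in control and 5140 and 5846 CPM in LGK974 livers, a rise of 3.39 ± 0.20 (SE, edgeR adjusted p = 7.99e-06). The metalloreductase Steap4 reached 1649 and 723 CPM from 23.1 and 31.3 CPM, with LGK974 library 1 above the endotoxemic pair (1567 and 1366 CPM) and library 2 below it. The metal-binding proteins Mt1 and Mt2 rose by 3.25 and 3.13. Serpina3k and Serpina3m, of a family of near-identical proteinase inhibitors among which short reads may be split, rose by 1.55 and 2.44.

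The 5 members that were lower under the drug were plasma carriers and inhibitors. Albumin (Alb) stood at 95090 and 58830 CPM in control and 26950 and 26640 CPM in LGK974 livers, with no overlap, and fell by 1.52 ± 0.30 (SE, edgeR adjusted p = 0.00495). Transthyretin (Ttr) and the retinol carrier Rbp4 changed by -1.47 and -2.39, and the inter-alpha-trypsin inhibitor chains Itih1 and Itih2 by -1.06 and -0.98. Hepcidin (Hamp), the hormone that closes the iron exporter of cells, followed another order. It read 625 and 779.5 CPM in control, 1034 and 1138 in endotoxemic and 640.5 and 372 in LGK974 livers. LGK974 library 1 lay between the controls and library 2 below them, and Hamp was lower than in endotoxemic livers (-1.10 ± 0.27, edgeR adjusted p = 0.0454), while its difference from control did not pass the test (log2 fold change -0.47, edgeR adjusted p = 0.202). Without control library 2 only 3 of the falls keep their call, and calls were lost for Itih1 (edgeR adjusted p = 0.08 without control 2) and Itih2 (edgeR adjusted p = 0.0678 without control 2).

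**Figure D2:**
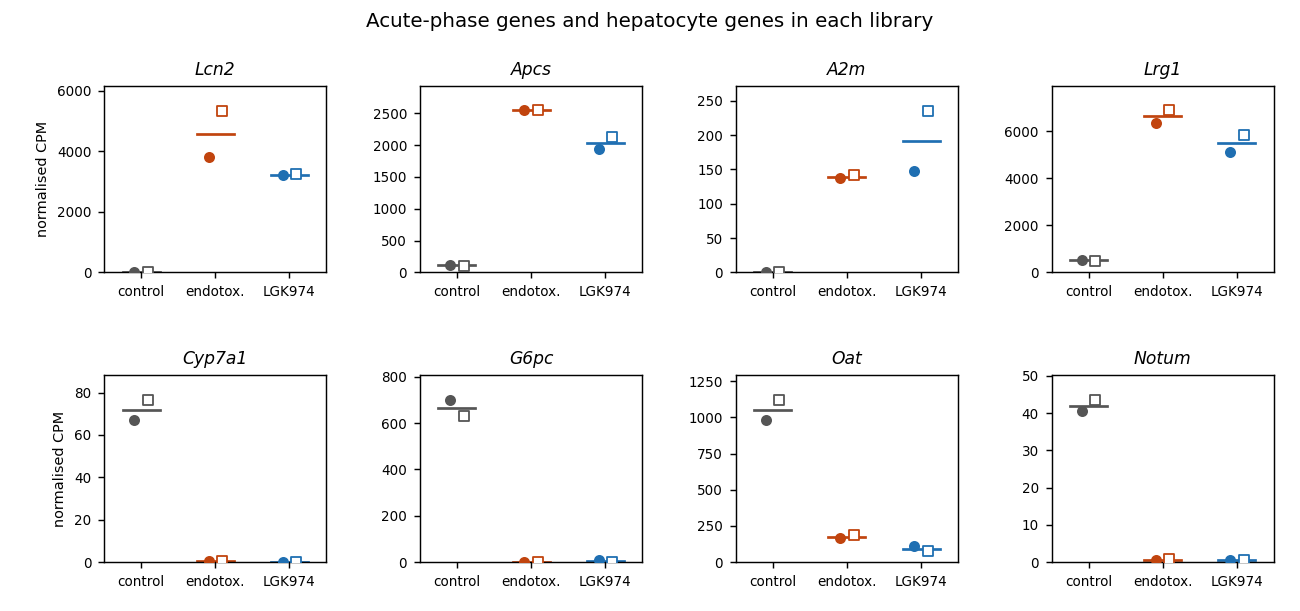
Normalised CPM in each library, by group, for Lcn2, Apcs, A2m and Lrg1, which were higher than control in both treated groups, and for Cyp7a1, G6pc, Oat and Notum, which were lower in both. Points are libraries and horizontal lines are group means of 2 libraries. In each panel the LGK974 libraries lie apart from both control libraries.

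Signals around NF-κB remained raised in part. Of 19 tested feedback inhibitors and mRNA-decay factors 9 were higher and 4 lower than control under the drug, with a median of 1.18, against 12, 1 and 1.81 in endotoxemic livers. By direct test 7 members were lower than in endotoxemic livers. The median falls to 0.54 without LGK974 library 1.

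Nfkbia, which encodes the inhibitor IκBα and is itself an NF-κB target, stood at 305 and 286 CPM in control, 1294 and 1109 in endotoxemic and 702 and 635 in LGK974 livers. The 3 pairs did not overlap and the LGK974 pair lay between the others. Nfkbia was higher than control by 1.18 ± 0.19 (SE, edgeR adjusted p = 0.00151) and lower than in endotoxemic livers (-0.85 ± 0.19, edgeR adjusted p = 0.033). The cytokine-signaling inhibitor Socs1 stood at 1.77 and 0.51 CPM in control, 190.3 and 122 in endotoxemic and 53.4 and 27.8 in LGK974 livers, again with the LGK974 pair in between, and its changes were 5.24 from control and -1.95 from endotoxemic livers, both past the test. Socs3, which limits signaling from interleukin 6, rose by 2.86 ± 0.29 (SE, edgeR adjusted p = 0.000134), and the LGK974 libraries lay below the endotoxemic pair without a call (-0.78). The interleukin 1 pathway inhibitor Irak3 and the atypical IκB protein Bcl3 rose by 6.09 and 2.08.

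The 4 members lower than saline under the drug were Zfp36, Zfp36l1, Zfp36l2 and Cish. Zfp36, whose protein tristetraprolin binds AU-rich elements and speeds decay of cytokine mRNA, stood at 61.3 and 82.4 CPM in control, 99.4 and 107 in endotoxemic and 23.9 and 32.9 in LGK974 livers. Both LGK974 libraries were below all 4 others, with changes of -1.34 ± 0.24 (SE, edgeR adjusted p = 0.00265) from control and -1.86 ± 0.24 (SE, edgeR adjusted p = 0.00482) from endotoxemic livers. Its relative Zfp36l1 read 247 and 265 CPM in control, 302 and 295 in endotoxemic and 116 and 99.4 in LGK974 livers, a change of -1.25 from control and -1.47 from endotoxemic livers, and Zfp36l2 changed by -1.57 from control. The Stat5-induced inhibitor Cish also fell, from 34.9 and 36 CPM in control to 9.29 and 15.1 CPM under the drug. With LPS alone Zfp36, Zfp36l1 and Cish had no call against control (0.52, 0.22 and 0.15), and all 3 were lower under the drug than with LPS alone by direct test.

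Among 21 tested cytokines and receptors, 8 were higher and 2 lower than control under the drug, with a median of 0.65, and 15 and 1 with LPS alone, with a median of 2.29. The median under the drug is 1.19 without control library 1 and 1.80 without control library 2. Interferon gamma (Ifng) had no count in either control library, 11.5 and 15.5 CPM in the endotoxemic libraries and 0.171 and 0 CPM in the LGK974 libraries. The LGK974 libraries held 2 and 0 reads of it, and Ifng was lower than in endotoxemic livers (-7.19 ± 0.79, edgeR adjusted p = 0.00363). The neutrophil growth factor Csf3 was also uncounted in both controls and read 12.5 and 15.6 CPM in endotoxemic and 7.25 and 4.89 CPM in LGK974 livers, at least 22.9-fold higher than control when the controls are set at the floor of 3 counts per library. The interleukin 1 decoy receptor Il1r2, carried by neutrophils, stood at 0.104 and 0.0728 CPM in control and 12.7 and 14.1 CPM under the drug (7.10 ± 0.52, edgeR adjusted p = 2.45e-05). Receptors of the interleukin 6 family diverged, with the oncostatin M receptor Osmr up by 2.90 and the leukemia inhibitory factor receptor Lifr changed by -2.37. Of 3 chemokine rows in order, Cxcl12, which retains leukocytes in tissue, was lower than control (461 and 445 CPM against 99.7 and 152 CPM, log2 fold change -1.85), and Cxcl16, a transmembrane chemokine, was lower than in endotoxemic livers (-1.15 ± 0.24, edgeR adjusted p = 0.0291).

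Immediate-early and AP-1 genes gave 10 higher and 2 lower of 20 under the drug, with a median of 1.07, and 14 and 0 with LPS alone, with a median of 2. Without control library 1 the rises number 6, and the median is 0.55 without LGK974 library 1. The early-response gene Ier3 read 2.39 and 2.4 CPM in control, 399 and 331 in endotoxemic and 411 and 131 in LGK974 livers, and rose by 6.81 ± 0.56 (SE, edgeR adjusted p = 4.62e-05). Library 1 of the LGK974 group lay just above the endotoxemic pair and library 2 well below it. Fosl2 and Junb, subunits of the AP-1 dimer, rose by 2.43 and 1.52. The orphan receptors Nr4a1 and Nr4a2 were the falls, at -1.14 and -4.57. Egr1, a zinc-finger factor induced by growth signals, read 23.7 and 26 CPM in control and 33.4 and 20.1 CPM in LGK974 livers, on either side of control, and was lower than in endotoxemic livers at 107 and 104 CPM (-1.98 ± 0.26, edgeR adjusted p = 0.00483). Calls against control were lost for Nr4a1 (edgeR adjusted p = 0.0772 without control 1, 0.179 without control 2, 0.0638 without endotoxemic 1, 0.0629 without endotoxemic 2 and 0.0851 without LGK974 2) and Nr4a2 (edgeR adjusted p = 0.0592 without control 2).

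Genes of endothelial activation gave more rises than falls. Of 16 tested genes 10 were higher and 2 lower than control, with a median of 2.2, and endotoxemic livers gave 10, 2 and 1.76. With either control library left out 0 were lower, and without LGK974 library 2, 4 were. The thrombin receptor thrombomodulin (Thbd) stood at 1.98 and 3.35 CPM in control, 19.9 and 16.8 in endotoxemic and 29.3 and 63.6 in LGK974 livers, and was highest in the LGK974 pair (4.09 ± 0.43, edgeR adjusted p = 0.000159). The protein C receptor Procr and the Tie2 ligand Angpt2, both of endothelium, rose by 4.69 and 4.79. The hyaluronan receptor Lyve1, a marker of sinusoidal endothelium, stood at 55.4 and 39.8 CPM in control and 451 and 563 CPM under the drug (3.41 ± 0.24, edgeR adjusted p = 2e-05), with both LGK974 libraries above the endotoxemic pair (408 and 384 CPM). Stab2, a scavenger receptor of the same cells, fell by 1.19 ± 0.27 (SE, edgeR adjusted p = 0.00975). The call on Stab2 (edgeR adjusted p = 0.0568 without control 1 and 0.0568 without control 2) was lost. Over the whole list of 13 tested sinusoidal endothelial markers 2 were higher and 8 lower, and their summed level was 631.8 and 626.2 CPM in control and 642.7 and 853.5 CPM in LGK974 livers. Lyve1 made up most of the LGK974 sums, and without it the sums were 576 and 586 CPM in control and 192 and 291 CPM in LGK974 livers.

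Markers of neutrophils moved with these programs. Of 10 tested neutrophil markers 9 were higher in LGK974 than in control livers, with a median of 6.6, and their summed level rose from 29.86 and 21.42 CPM to 3368 and 3429 CPM, most of it Lcn2, which hepatocytes also make. The granule proteins Ngp, Camp and Ltf had no count in the control libraries. They passed the filter on low counts only through the treated libraries, so they could rise or go uncalled but not fall. Their log2 fold changes, and with them the median of the list, depend on the prior count. Ngp read 32.8 and 34.5 CPM in endotoxemic and 30.5 and 26.4 CPM in LGK974 livers, at least 107-fold above control, and Camp read 10.5 and 8.41 CPM in endotoxemic and 11.6 and 8.33 CPM in LGK974 livers. No neutrophil marker passed the direct test between the treated groups, although the summed level in both LGK974 libraries was below that in both endotoxemic libraries (4062 and 5572 CPM). Of 13 Kupffer cell markers 8 were lower and 2 higher than control, and the summed level was 540.2 and 540.7 CPM in control and 277.1 and 356.2 CPM in LGK974 livers. The rises were Marco and Spic, by 3.605 and 3.35. Marco read 7.70 and 6.99 CPM in control and 68.7 and 109.8 CPM in LGK974 livers. Timd4, Adgre1 and Cd68 had no call. The lectin Clec4f and the complement receptor Vsig4 are further Kupffer cell markers. Vsig4 lies on the X chromosome and is not among the 13. Clec4f read 41.5 and 40.6 CPM in control and 10.2 and 8.02 CPM in LGK974 livers (-2.17), and Vsig4 42.4 and 44.4 CPM and 4.18 and 1.83 CPM (-3.86). Of 10 tested hepatocyte markers 1 was higher and 5 were lower. Monocyte markers gave 4 higher and 1 lower of 5. The lower one was F10, which encodes coagulation factor X. It read 493 and 531 CPM in control and 295 and 325 CPM in LGK974 livers. Stellate cell markers gave 1 and 6 of 14 and erythroid markers 0 and 1 of 5. T and NK cell markers gave 0 and 0 of 6. With LPS alone all 5 tested erythroid markers were higher than control, and 3 of them were lower in LGK974 than in endotoxemic livers, with summed levels of 3055 and 3284 CPM in control, 7427 and 8782 CPM in endotoxemic and 4641 and 3025 CPM in LGK974 livers. Of the T and NK cell markers 2 were higher with LPS alone and 0 differed between the treated groups by direct test, with sums of 13.8 and 8.38, 14.6 and 17.1, and 7.16 and 5.35 CPM in the same order of groups. Platelet and megakaryocyte markers gave 3 higher and 0 lower of 4, and their summed level was 8.43 and 9.10 CPM in control, 629.5 and 746.6 CPM in endotoxemic and 81.3 and 17.7 CPM in LGK974 livers. Most of that sum in the treated libraries was the row Pf4, which lies slightly out of genomic order, and without it the sums were 3.95 and 3.64, 11.3 and 11.9, and 5.97 and 7.18 CPM in the same order of groups. The call was lost for Pf4 (edgeR adjusted p = 0.084 without control 1 and 0.0692 without control 2). Cholangiocyte markers gave 1 higher and 0 lower of 9. Dendritic cell markers gave 1 and 1 of 3 and adipocyte markers 1 and 0 of 2. There was no call among 3 smooth muscle, 2 B and plasma cell, 1 mesothelial and 1 pancreatic acinar marker. With LPS alone 3 cholangiocyte, 2 smooth muscle, 1 mesothelial and 1 adipocyte marker were lower than control. In that comparison 1 cholangiocyte, 1 dendritic cell and 1 adipocyte marker were higher. By direct test 1 cholangiocyte, 1 smooth muscle and 1 adipocyte marker were higher in LGK974 than in endotoxemic livers. The part of cell composition in the changes of the other programs was not tested.

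Many interferon-induced genes were higher than in saline livers, and many were lower than with LPS alone. The GTPases that interferon gamma induces, guanylate-binding proteins and immunity-related GTPases that attack vacuoles of pathogens, gave 14 higher and 0 lower of 20 tested, with a median log2 fold change of 2.23. In endotoxemic livers all 20 were higher than control, with a median of 4.05, and 13 of the 20 were lower in LGK974 than in endotoxemic livers by direct test. Every one of the 20 was lower in both LGK974 libraries than in both endotoxemic libraries. The share of all tested genes in that order was not counted. LGK974 library 1 exceeded library 2 in each of the 20, and the median becomes 0.83, with 12 higher and 3 lower, without library 1 and 2.89, with 17 higher, without library 2. Without control library 2 the rises number 9.

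Of the 20 genes 10 had promoter sequences in the RefSeq table used here (mouse build GRCm38.p6), in 11 windows of 250 bases before to 50 after a transcript start. The interferon gamma-activated site (GAS), searched as TTCNNNGAA on both strands, lay in 6 of the 11 windows, and the core of the interferon-stimulated response element (ISRE), searched as GAAANNGAA on both strands, in 9 of 11, against 8.3% and 8.56% of all 32851 windows. A match is a description of letters and not a site of binding. Gbp2 is printed because it had the largest rise of the list among genes with a match, at chr3:142620413-142620712 on the plus strand, with its ISRE core match, read on the opposite strand, in capitals beginning 58 bases before the start. Short stretches of 5 immunity-related GTPase genes on chromosome 11 are printed because in each a GAS match and an ISRE core match, both in capitals, stand 2 bases apart, and this set was chosen after the values were seen.
Gbp2: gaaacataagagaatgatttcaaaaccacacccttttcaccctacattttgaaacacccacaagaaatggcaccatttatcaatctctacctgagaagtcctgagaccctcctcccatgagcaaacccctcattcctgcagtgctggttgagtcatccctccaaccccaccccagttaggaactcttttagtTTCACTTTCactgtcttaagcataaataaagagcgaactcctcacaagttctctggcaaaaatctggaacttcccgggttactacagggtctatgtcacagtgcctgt
Tgtp1, chr11:48992312-48992337, minus strand: catTTCCAGGAAtcGAAACTGAAacc
Tgtp2, chr11:49064271-49064296, minus strand: catTTCCAGGAAtcGAAACCGAAacc
Gm12185, chr11:48927246-48927271, minus strand: catTTCCAGGAAtaGAAAGTGAAacc
Irgm2, chr11:58214899-58214924, plus strand: catTTCCAGGAActGAAACTGAAagc
Igtp, chr11:58199508-58199533, plus strand: catTTCTAGGAActGAAACTGAAagc

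Gbp2, the guanylate-binding protein printed above, stood at 6.97 and 6.41 CPM in control, 940.5 and 1017 in endotoxemic and 690.1 and 176 in LGK974 livers. Both LGK974 libraries exceeded the controls and lay below the endotoxemic pair, with library 1 far above library 2. Gbp2 rose from control by 6.02 ± 0.61 (SE, edgeR adjusted p = 0.000124), and its difference from endotoxemic livers did not pass the test (-1.18, edgeR adjusted p = 0.186). Of the other called members, Gbp3, Gbp4, Gbp6, Gbp9 and Gbp10 rose by 3.49, 4.53, 3.22, 2.28 and 2.95. Iigp1, which is loaded onto parasite vacuoles, read 760.0 and 708 CPM in control, 7058 and 6472 in endotoxemic and 3733 and 1304 in LGK974 livers and rose by 1.78 ± 0.40 (SE, edgeR adjusted p = 0.00878). The call was lost for Gbp9 (edgeR adjusted p = 0.0903 without control 2) and Iigp1 (edgeR adjusted p = 0.0635 without control 1 and 0.0718 without control 2). Without LGK974 library 1 the changes of Gbp3, Gbp9 and Iigp1 from control become 1.96, 1.48 and 0.83.

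The 5 genes with adjacent matches did not share a call. The T-cell-specific GTPases Tgtp1 and Tgtp2, a near-identical pair whose reads cannot be assigned with certainty, did not overlap between groups. Tgtp1 stood at 4.47 and 4.15 CPM in control, 335 and 359 in endotoxemic and 74.1 and 18.6 in LGK974 livers, and Tgtp2 stood at 5.93 and 4.51, 336 and 364 and 78.4 and 21 CPM in the same order. They rose from control by 3.42 and 3.26 and were lower than in endotoxemic livers (-2.91 ± 0.51, edgeR adjusted p = 0.0156 for Tgtp1 and -2.82 for Tgtp2, also past the test). Irgm2, which controls loading of these GTPases, read 42.6 and 32.5 CPM in control and 72.9 and 37.9 CPM in LGK974 livers, and Igtp, also called Irgm3, 33.2 and 43.4 CPM and 137 and 40.6 CPM, in each case with LGK974 library 2 between the controls. Their differences from control did not pass the test (0.56 and 1.21), nor did that of Gm12185 (2.19), which was near the detection floor in control livers. All 3 were lower than in endotoxemic livers (-2.08, -2.42 and -4.18). Without LGK974 library 1 Tgtp1 and Tgtp2 stand 2.11 and 2.03 above control.

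F830016B08Rik and Gm4951 lay around or below the saline values. F830016B08Rik, an interferon-inducible GTPase-like gene, stood at 15.8 and 19.9 CPM in control, 153 and 179.7 in endotoxemic and 15 and 4.13 in LGK974 livers. The LGK974 libraries were below both controls and all other libraries, without a call against control (-0.91 ± 0.46, edgeR adjusted p = 0.16), and the difference from endotoxemic livers was -4.13 ± 0.49 (SE, edgeR adjusted p = 0.00346). Its relative Gm4951 read 138 and 145 CPM in control, 382 and 394 in endotoxemic and 184 and 93.4 in LGK974 livers, with the LGK974 values on either side of control. Ifi47 was in between, at 31.4 and 30.9 CPM in control, 936 and 1240 in endotoxemic and 360.1 and 89.9 in LGK974 livers, 2.85 above control and -2.27 from endotoxemic livers, both past the test. Without LGK974 library 1 its change from control is 1.53.

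**Figure D3:**
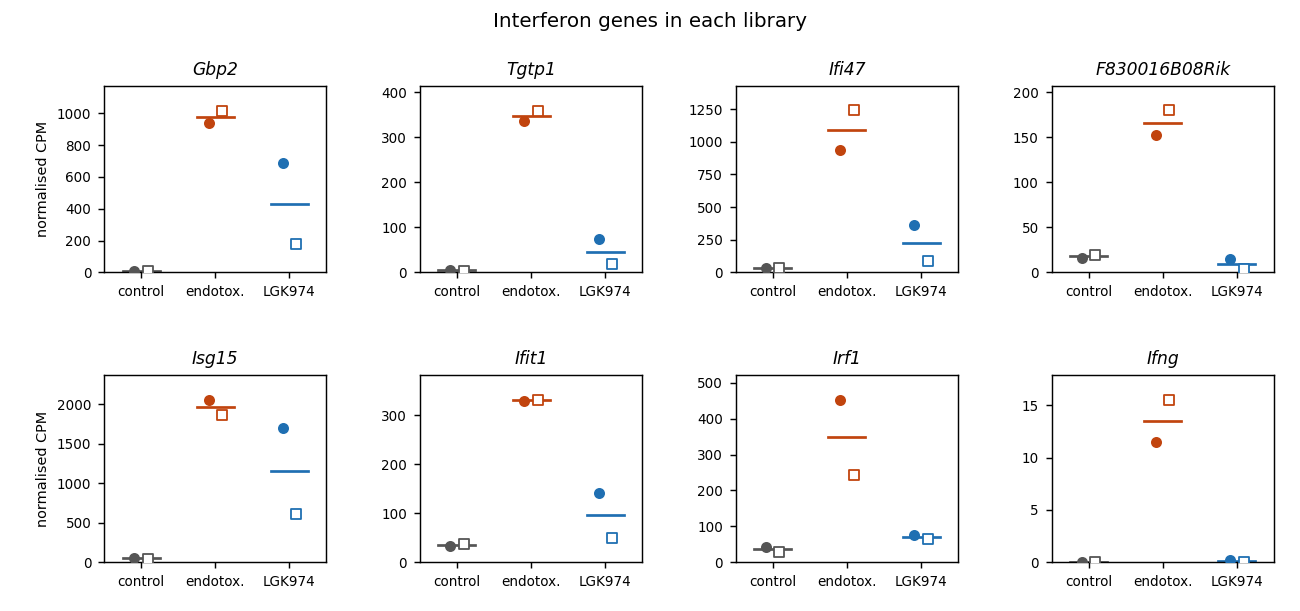
Normalised CPM in each library, by group, for 4 interferon gamma-induced GTPases, the antiviral effectors Isg15 and Ifit1, the factor Irf1 and the cytokine Ifng. Points are libraries and horizontal lines are group means of 2 libraries. In each panel both LGK974 libraries lie below both endotoxemic libraries.

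Antiviral effectors of the type I interferon response followed the same order of groups. Of 43 tested members 29 were higher and 0 lower than control, with a median of 1.56, against 41, 0 and 3.19 in endotoxemic livers, and 17 were lower in LGK974 than in endotoxemic livers. LGK974 library 1 exceeded library 2 in 37 of the 43, and the median was 0.91 without library 1 and 2.00 without library 2. The rises number 18 without control library 1.

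The ubiquitin-like modifier Isg15 stood at 48 and 43.8 CPM in control, 2051 and 1867 in endotoxemic and 1696 and 607 in LGK974 livers and rose by 4.65 ± 0.45 (SE, edgeR adjusted p = 9.5e-05). Ifit1, which binds viral RNA, stood at 33.3 and 37.9 CPM in control, 329 and 333 in endotoxemic and 141 and 49.97 in LGK974 livers, 1.42 from control and -1.79 from endotoxemic livers, both past the test. For both genes the LGK974 pair lay between the other pairs. Zbp1, a sensor of Z-form nucleic acid, kept most of its rise, at 4.89 and 7.06 CPM in control, 165 and 179.5 in endotoxemic and 187 and 91.8 in LGK974 livers (4.53 ± 0.38, edgeR adjusted p = 4.62e-05). Slfn4, a myeloid Schlafen gene, had no count in the controls and read 47.4 and 43.2 CPM with LPS alone and 5.03 and 5.65 CPM under the drug, at least 20.1-fold above control and lower than in endotoxemic livers (-3.08 ± 0.27, edgeR adjusted p = 0.00112). The call against control was lost for Ifit1 (edgeR adjusted p = 0.141 without control 1, 0.0997 without control 2 and 0.0578 without LGK974 1), whose change is 0.49 without LGK974 1.

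Other effectors had no call against control. The poly(ADP-ribose) polymerase Parp14 read 21.2 and 20.4 CPM in control, 132 and 146 in endotoxemic and 29 and 29.6 in LGK974 livers, which put the LGK974 pair above the controls (0.49, no call). The RNA sensor Ddx58, the E3 ligases Dtx3l and Trim21 and the nucleotide kinase Cmpk2 were also without a call against control, at -0.26, -0.13, 0.11 and -0.17, and all were lower than in endotoxemic livers, where each was higher than control. The antiviral membrane proteins Bst2 and Ifitm2 rose from control by 1.46 and 2.16, with no call against endotoxemic livers (-0.04 and 0.21).

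The transcription factors of the response split. Of 16 tested Irf, Stat and Batf genes 6 were higher and 1 lower than control, with a median of 0.46, and 10 and 1 with LPS alone, with a median of 1.79. With either control library left out the rises number 2. Irf1, the factor that interferon gamma induces, stood at 42.4 and 29 CPM in control, 453 and 244 in endotoxemic and 74.8 and 63.2 in LGK974 livers. Its LGK974 pair lay above the controls (0.95 ± 0.31, edgeR adjusted p = 0.0421) and well below the endotoxemic pair (-2.34 ± 0.32, edgeR adjusted p = 0.00624). Irf7, which drives type I interferon genes, kept more of its rise, at 21.3 and 20.6 CPM in control, 263 and 219.5 in endotoxemic and 245 and 112 in LGK974 livers (3.09 ± 0.35, edgeR adjusted p = 0.000227). Irf8 of myeloid cells rose by 1.26. The repressor Irf2 was below both other groups, at 35.5 and 35.4 CPM against 95 and 89.1 CPM in control and 75.1 and 81.3 CPM in endotoxemic livers (-1.38 ± 0.18, edgeR adjusted p = 0.000585 from control). Calls were lost for Irf1 (edgeR adjusted p = 0.075 without control 1 and 0.258 without control 2) and Irf8 (edgeR adjusted p = 0.128 without control 1 and 0.0933 without control 2), and the change of Irf8 is 0.55 without LGK974 1.

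Genes of MHC class I presentation gave rises without falls, and those of class II gave few calls. Of 23 class I genes 10 were higher and 0 lower than control, with a median of 1.03 (15, 0 and 1.4 with LPS alone), and 6 were higher without control library 2. The class I median is 0.5 without LGK974 library 1. The immunoproteasome subunit Psmb8 stood at 33.7 and 27.7 CPM in control, 217 and 188 in endotoxemic and 145 and 148 in LGK974 livers, a rise of 2.26 ± 0.20 (SE, edgeR adjusted p = 6.84e-05). The peptide transporter Tap1 rose by 2.00 and was lower than in endotoxemic livers (-1.69). Of 9 class II genes 1 was higher and 2 lower than control, and 0 were lower without control library 1. The class II shares were 11.1% higher and 22.2% lower, against 15.7% and 16.9% of all tested genes. H2-Aa and H2-Eb1, chains of class II molecules, changed by -1.09 and -1.11, and neither had a call with LPS alone (-0.21 and -0.12). The call was lost for H2-Aa (edgeR adjusted p = 0.0994 without control 1) and H2-Eb1 (edgeR adjusted p = 0.0609 without control 1 and 0.12 without control 2).

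**Figure D4:**
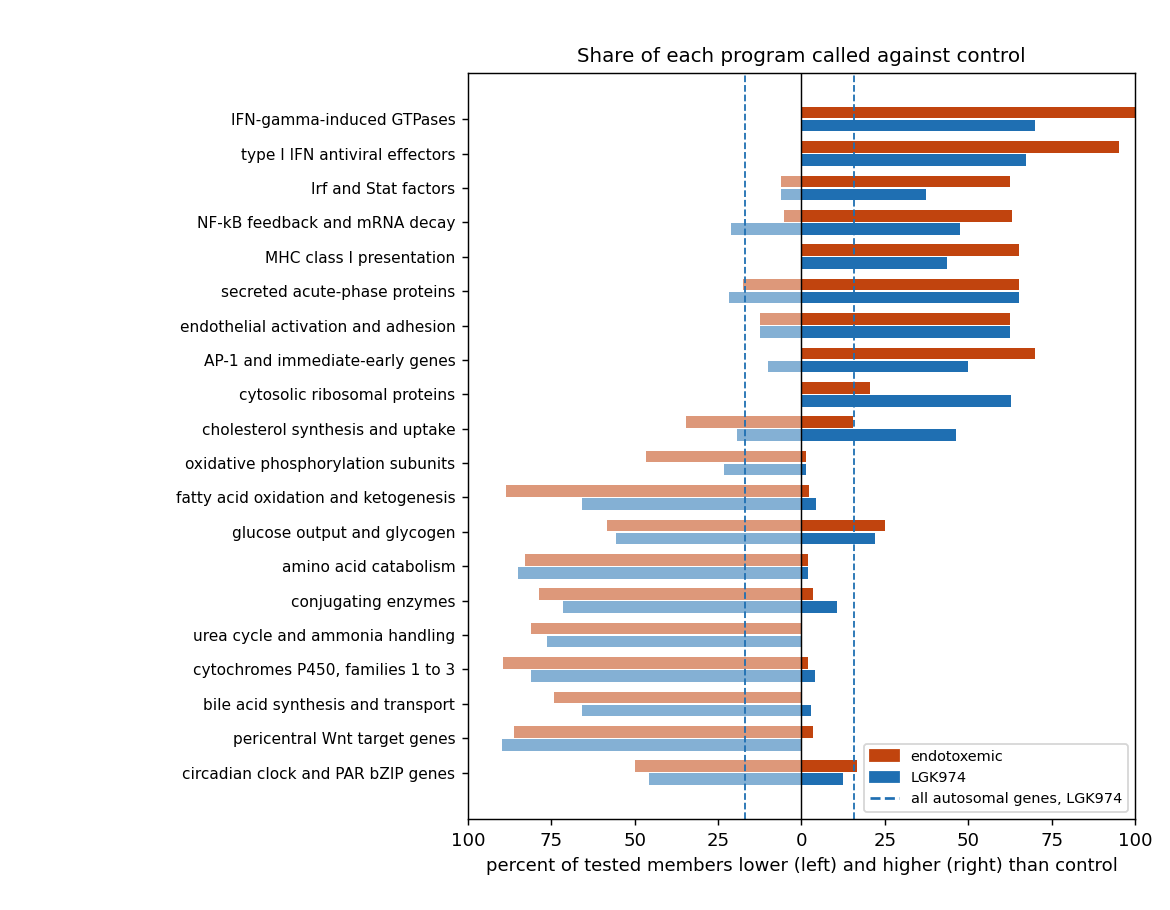
Percent of the tested members of each program that were lower (left) or higher (right) than control, for endotoxemic and LGK974 livers. Dashed lines mark the share among all autosomal genes in the LGK974 comparison, 15.7% higher and 16.9% lower. Drug metabolism, bile acid, amino acid and pericentral genes reach far beyond the line on the lower side in both groups.

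Many genes of drug metabolism were lower than in saline livers in both treated groups. Among cytochromes P450 of families 1 to 3, which oxidise drugs and steroids, 39 of 48 tested genes were lower and 2 higher than control, with a median of -2.14, against 43, 1 and -1.96 in endotoxemic livers. Many of these genes differ between the sexes in mouse liver. Without genes known to be biased to either sex in liver (a list for each sex) 26 of 34 were lower and 1 higher, with a median of -2. Conjugating enzymes gave 40 lower and 6 higher of 56, with a median of -1.62.

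Cyp2e1, which oxidises ethanol and small solvents, stood at 3762 and 3511 CPM in control, 331 and 265 in endotoxemic and 660.1 and 433 in LGK974 livers. Its LGK974 pair lay far below control and above the endotoxemic pair, and it fell from control by 2.73 ± 0.25 (SE, edgeR adjusted p = 7.64e-05). Cyp1a2 and Cyp3a11, of the caffeine and steroid pathways, changed by -2.49 and -1.05. The electron donor of these enzymes, Por, changed by -1.42. Among conjugating enzymes Ugt2b34 and Gstt3 changed by -3.03 and -3.00, whereas Nnmt, which methylates nicotinamide, rose in both groups (1.62 under the drug, 1.93 with LPS alone). Gstp1, at 208 and 219 CPM in control, 122 and 129.8 in endotoxemic and 911 and 649 in LGK974 livers, was highest under the drug (1.87 ± 0.21, edgeR adjusted p = 0.000244), and it is on the male-biased list. The call on Cyp3a11 (edgeR adjusted p = 0.0994 without control 2) was lost.

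Bile acid synthesis and transport gave 23 lower and 1 higher of 35 tested genes, with a median of -2.34 (26, 0 and -2 in endotoxemic livers). The rises number 0 with either control library or LGK974 library 1 left out, and 4 without LGK974 library 2. Cyp7a1, the rate-limiting enzyme of the classic pathway from cholesterol, stood at 67.2 and 76.3 CPM in control, 0.619 and 0.487 in endotoxemic and 0 and 0.153 in LGK974 livers. The last pair rests on 0 and 2 reads, and the fall was -9.61 ± 0.48 (SE, edgeR adjusted p = 4.57e-06). Cyp8b1, which sets the share of cholic acid, read 236 and 165 CPM in control, 5.69 and 2.44 in endotoxemic and 3.58 and 4.58 in LGK974 livers, so that the treated pairs overlapped (-5.61 and -5.62 from control). The uptake transporter Slc10a1 and the export pumps Abcb11 and Abcc2 changed by -4.14, -3.90 and -3.60. The receptor component Klb, through which Fgf15 represses Cyp7a1, fell by 5.83 ± 0.49 (SE, edgeR adjusted p = 5.08e-05). The repressor Nr0b2 read 38.1 and 44.5 CPM in control, 0 and 0.244 in endotoxemic and 0.256 and 7.33 in LGK974 livers, so its LGK974 libraries differed widely, and it fell by 3.42 ± 0.85 (SE, edgeR adjusted p = 0.0138). Cyp7b1 of the alternative pathway was the rise, at 16 and 15.2 CPM against 104 and 23.1 CPM, and is male-biased. Calls were lost for Nr0b2 (edgeR adjusted p = 0.0531 without control 1 and 0.0668 without control 2) and Cyp7b1 (edgeR adjusted p = 0.11 without control 1, 0.117 without control 2 and 0.132 without LGK974 1). The change of Cyp7b1 is 0.57 without LGK974 1, and that of Nr0b2 is -7.27 without LGK974 2.

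Glucose output and glycogen genes gave 20 lower and 8 higher of 36, with a median of -1.11, and 21, 9 and -1.15 with LPS alone. The rises number 5 without control library 1, and the median is -0.73 without LGK974 library 2. Glucose 6-phosphatase (G6pc), the last step of glucose release, stood at 699 and 632 CPM in control, 2.1 and 2.44 in endotoxemic and 10.2 and 1.91 in LGK974 livers. All treated libraries were far below control, LGK974 library 2 was the lowest, and the fall was -6.79 ± 0.63 (SE, edgeR adjusted p = 7.89e-05). The glucose transporter Slc2a2 fell from 368 and 306 CPM to 6.31 and 4.74 CPM (-5.93 ± 0.26, edgeR adjusted p = 2.78e-06), and the glycogen-targeting subunit Ppp1r3g, at 86.4 and 84.2 CPM in control, held 1 read in each LGK974 library (-9.85). Pck1, which commits oxaloacetate to glucose synthesis, was lower than control but not to the same extent as with LPS alone, at 2903 and 3621 CPM in control, 115 and 133 in endotoxemic and 469 and 889.6 in LGK974 livers. The 3 pairs did not overlap, with -2.26 ± 0.30 (SE, edgeR adjusted p = 0.000563) from control and 2.45 ± 0.30 (SE, edgeR adjusted p = 0.0041) from endotoxemic livers. Genes of glycolysis were among the rises. Pfkfb3, whose product activates phosphofructokinase, read 6.87 and 6.41 CPM in control, 273 and 196 in endotoxemic and 158 and 78.7 in LGK974 livers (4.16 ± 0.37, edgeR adjusted p = 6.19e-05), and Ldha rose by 1.97.

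Most tested genes of nitrogen metabolism were lower than control. Urea cycle and ammonia handling gave 16 lower and 0 higher of 21, with a median of -2.05, and amino acid catabolism 45 lower and 1 higher of 53, with a median of -1.59. The corresponding figures with LPS alone were 17, 0 and -1.96, and 44, 1 and -1.64. Ornithine aminotransferase (Oat) stood at 982 and 1121 CPM in control, 168 and 185 in endotoxemic and 110.1 and 75.1 in LGK974 livers. Its LGK974 pair was the lowest of the 3 pairs, -3.50 ± 0.24 (SE, edgeR adjusted p = 1.96e-05) from control and -0.93 ± 0.22 (SE, edgeR adjusted p = 0.0447) from endotoxemic livers. Carbamoyl-phosphate synthase (Cps1), the entry enzyme of the urea cycle, read 1161 and 1383 CPM in control and 407 and 120.3 CPM in LGK974 livers (-2.27 ± 0.46, edgeR adjusted p = 0.00521), with library 2 the lowest of all. The mitochondrial carbonic anhydrase Car5a, which supplies bicarbonate to that enzyme, fell by 5.43. Of amino acid enzymes, the transsulfuration enzyme Cth changed by -4.15. The serine dehydratase relative Sdsl was the rise, from 6.03 and 7.57 CPM to 80.5 and 67.6 CPM (3.43 ± 0.24, edgeR adjusted p = 1.96e-05).

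Pericentral Wnt target genes were low in both treated groups. Of 29 tested members 26 were lower and 0 higher than control under the drug, with a median of -2.49, and 25, 1 and -2.23 with LPS alone. By direct test 2 members, Oat and Cyp2c37, were lower than in endotoxemic livers. Notum, a secreted enzyme that removes the lipid of Wnt proteins, stood at 40.6 and 43.5 CPM in control, 0.495 and 0.731 in endotoxemic and 0.682 and 0.688 in LGK974 livers. All treated libraries were below 1 CPM, and the falls were -5.92 ± 0.33 (SE, edgeR adjusted p = 6.77e-06) under the drug and -6.07 with LPS alone. Axin2 and Lgr5, a feedback inhibitor and an R-spondin receptor of the pathway, were nearly lost. Axin2 read 4.99 and 4.37 CPM in control and 0.256 and 0 CPM under the drug, and Lgr5 read 7.49 and 10.8 CPM and 0 and 0.458 CPM, changes of -5.13 and -5.20 that end in a few reads. With the library that holds those reads left out the changes are -8.62 for Axin2 and -9.57 for Lgr5, values that depend on the prior count. The transcription factor Tbx3 and the glutamate transporter Slc1a2 changed by -2.37 and -3.34.

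Exceptions on that list were the genes without a call. Glutamine synthetase (Glul), confined to the cells next to the central vein, read 1506 and 1289 CPM in control, 802 and 612 in endotoxemic and 1182 and 385 in LGK974 livers. Every treated library was below both controls and LGK974 library 1 was the nearest to them, with no call in either group (-0.83 and -0.98). Cyclin D1 (Ccnd1) read 88.8 and 94.9 CPM in control, 269 and 262 in endotoxemic and 183 and 86.6 in LGK974 livers, a rise with LPS alone (1.53) and no call under the drug (0.56). Periportal genes were lowered too, 13 of 19 with 1 higher and a median of -1.77 (16, 0 and -1.56 with LPS alone). The histidine ammonia-lyase Hal and the liver glutaminase Gls2, both periportal, changed by -2.69 and -2.76.

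Components of Wnt signaling itself gave fewer calls than the pericentral targets. Of 38 rows of ligands, R-spondins and secretion genes 11 passed the filter. Of these 2 were higher (18.2%) and 3 lower (27.3%) than control. Of 32 receptors and intracellular components 1 was higher (3.1%) and 10 lower (31.2%). Among all tested genes 15.7% were higher and 16.9% lower. With either control library left out the ligands gave 1 higher and 1 lower, and with control library 1 left out 0 of the receptors were higher. The median of the ligands, 0.15, lay between -0.18 and 0.32 with a library left out, and that of the receptors, -0.29, moved to -0.15 without control library 2. Porcn, the inhibitor's target, lies on the X chromosome outside these counts, and read 4.58 and 2.84 CPM in control, 1.61 and 1.1 in endotoxemic and 4.26 and 4.66 in LGK974 livers, with no call in any comparison. Wnt5b, a ligand of non-canonical signaling, stood at 4.37 and 3.42 CPM in control, 4.08 and 5.6 in endotoxemic and 16.6 and 15.8 in LGK974 livers. Both LGK974 libraries were above all others, 2.06 ± 0.32 (SE, edgeR adjusted p = 0.0014) from control and 1.74 ± 0.32 (SE, edgeR adjusted p = 0.0188) from endotoxemic livers. The endothelial ligand Wnt2 read 9.26 and 8.81 CPM in control, 0.866 and 0.244 in endotoxemic and 0.341 and 2.44 in LGK974 livers (-2.67 ± 0.73, edgeR adjusted p = 0.0219), and the R-spondin Rspo3, which amplifies Wnt signals around the central vein, had no call (-0.73). Of receptors, Fzd8 and Lgr4 changed by -3.36 and -1.54, and the E3 ligases Rnf43 and Znrf3, which remove Frizzled receptors, by -2.29 and -1.47. The coreceptor Lrp6 changed by -0.78 ± 0.23 (SE, edgeR adjusted p = 0.0309). The genes of the destruction complex and its substrate, Ctnnb1, Gsk3b, Axin1 and Btrc, had no call against control, at 0.16, 0.03, 0.38 and -0.12, nor against endotoxemic livers. Calls were lost for Wnt2 (edgeR adjusted p = 0.0985 without control 1 and 0.0897 without control 2), Lrp6 (edgeR adjusted p = 0.0747 without control 1, 0.212 without control 2, 0.0549 without endotoxemic 1, 0.0562 without endotoxemic 2 and 0.0849 without LGK974 1) and Znrf3 (edgeR adjusted p = 0.0746 without control 1 and 0.121 without control 2), and the change of Wnt2 is -4.68 without LGK974 2.

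Nuclear receptors and hepatocyte factors gave 22 lower and 3 higher of 41, with a median of -0.88, against 24, 3 and -1.24 with LPS alone. The falls number 14 with either control library left out. The xenobiotic receptor Nr1i3 (CAR) read 52.3 and 60.6 CPM in control, 1.36 and 1.1 in endotoxemic and 1.36 and 3.29 in LGK974 livers (-4.58 ± 0.38, edgeR adjusted p = 4.62e-05), so all treated libraries were far below the controls. The coactivator Ppargc1b and the clock repressor Nr1d1 changed by -3.79 and -2.68. Hnf4a, which holds the hepatocyte program, had no call in either treated group (-0.001 and -0.13). Cebpd and Foxa3 were among the rises, by 2.59 and 2.05.

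Fatty acid oxidation and ketogenesis stood between the other groups. Of 44 tested genes 29 were lower and 2 higher than control, with a median of -0.97, against 39, 1 and -1.51 with LPS alone, and 9 were higher and 0 lower than in endotoxemic livers. Without control library 2 the falls number 19. Both rises were Cyp4a12a and Cyp4a12b, a near-identical male-biased pair. The receptor Ppara, which drives these genes, stood at 329 and 401 CPM in control, 14.6 and 18.3 in endotoxemic and 69.3 and 149 in LGK974 livers. The 3 pairs did not overlap, with -1.74 ± 0.33 (SE, edgeR adjusted p = 0.00378) from control and 2.73 ± 0.35 (SE, edgeR adjusted p = 0.00483) from endotoxemic livers. Cpt1a, the gate of mitochondrial import, read 152 and 169 CPM in control, 55.3 and 49.1 in endotoxemic and 109 and 95.3 in LGK974 livers, -0.65 and 0.97, both past the test. The thioesterase Acot2 was near the saline values, at 24.9 and 18.1 CPM in control, 2.6 and 1.95 in endotoxemic and 17.6 and 17 in LGK974 livers (-0.31 from control without a call, 2.92 from endotoxemic livers with one). The acyl-CoA ligase Acsl1 stayed low, at -3.75 from control, though higher than in endotoxemic livers by 1.503. The droplet protein Plin5, which tethers lipid to mitochondria and is counted with lipogenesis, read 68.3 and 51.9 CPM in control, 6.19 and 4.51 in endotoxemic and 28 and 51.6 in LGK974 livers, without a call against control (-0.59) and 2.89 ± 0.35 (SE, edgeR adjusted p = 0.00366) from endotoxemic livers. The call on Cpt1a (edgeR adjusted p = 0.105 without control 1, 0.178 without control 2, 0.0573 without endotoxemic 1 and 0.0588 without endotoxemic 2) was lost.

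Cholesterol synthesis gave more rises than falls under the drug. Of 26 tested genes 12 were higher and 5 lower than control, with a median of 0.58 and with 3 lower when either control library is left out, while endotoxemic livers gave 4, 9 and -0.02. Tested directly, 11 were higher and 0 lower than in endotoxemic livers, with a median of 0.75. Mevalonate decarboxylase (Mvd) stood at 26.4 and 21.7 CPM in control, 36.5 and 29.9 in endotoxemic and 79.8 and 66 in LGK974 livers. Lanosterol synthase (Lss) stood at 13.9 and 19.1 CPM in control, 23.6 and 25.1 in endotoxemic and 52 and 51.5 in LGK974 livers, and Hsd17b7, of the later demethylation steps, at 64.7 and 82.7 CPM in control, 79.2 and 84.9 in endotoxemic and 209 and 162 in LGK974 livers. In all 3 genes both LGK974 libraries were above the other 4. Their changes were 1.60 ± 0.22 (SE, edgeR adjusted p = 0.000685) for Mvd, 1.64 ± 0.23 (SE, edgeR adjusted p = 0.000656) for Lss and 1.33 ± 0.21 (SE, edgeR adjusted p = 0.00167) for Hsd17b7, and each was also higher than in endotoxemic livers. Squalene epoxidase (Sqle) rose in both groups (1.89 under the drug, 1.501 with LPS alone). Among the members that fell were Tm7sf2, the late enzyme Sc5d and the HDL receptor Scarb1 (-1.12, -1.46 and -1.56). The call was lost for Tm7sf2 (edgeR adjusted p = 0.0609 without control 1 and 0.0874 without control 2).

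Lipogenesis, in contrast, gave 20 lower and 3 higher of 32, with a median of -1.03 (21, 2 and -1.48 with LPS alone), and the falls number 13 without control library 2 and the rises 6 without LGK974 library 2. Srebf1 and Mlxipl, the factors that respond to insulin and glucose, changed by -2.67 and -2.34. The droplet proteins Plin2 and Cidec and the lipase inhibitor Angptl4 were the rises, by 1.70, 3.93 and 1.37. Of 16 apolipoproteins 7 were lower and 0 higher, with a median of -1.05 (-0.53 without LGK974 library 2), and Apoe read 37890 and 35280 CPM in control and 13540 and 13610 CPM in LGK974 livers (-1.43 ± 0.18, edgeR adjusted p = 0.000381).

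Clock genes differed in both directions between the treated groups. Against control 3 were higher and 11 lower of 24, with a median of -0.66 (4, 12 and -0.87 with LPS alone), and 7 were higher and 4 lower than in endotoxemic livers. The counts against control depended on which library was left out. Falls were fewest with either control library left out. Rises were fewer with any library but LGK974 library 2 left out, and more numerous without that library. The median against control lay between -0.76 (without LGK974 library 1) and -0.48 (without LGK974 library 2). The labels do not give the hour of the day at which livers were taken. Of the 24 genes 19 matched the promoter table, with the E-box CACGTG, which Clock and Arntl bind and which reads the same on both strands, in 6 of 27 windows against 7.15% of all windows. Bhlhe41 is printed because it had the largest change among called members with a match, at chr6:145865371-145865670 on the minus strand of GRCm38.p6, with its E-box in capitals beginning 153 bases before the start.
Bhlhe41: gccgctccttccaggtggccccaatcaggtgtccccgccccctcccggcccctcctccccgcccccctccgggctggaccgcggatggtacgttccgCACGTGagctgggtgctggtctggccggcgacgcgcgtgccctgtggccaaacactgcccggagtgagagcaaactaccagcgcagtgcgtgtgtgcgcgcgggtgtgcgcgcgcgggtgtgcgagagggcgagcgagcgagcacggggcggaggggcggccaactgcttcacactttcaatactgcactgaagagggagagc

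Bhlhe41, a repressor of Clock and Arntl activity, stood at 1.87 and 2.55 CPM in control, 25.7 and 22.2 in endotoxemic and 8.52 and 6.19 in LGK974 livers, with the LGK974 pair in between (1.71 ± 0.33, edgeR adjusted p = 0.00422 from control). The PAR bZIP factor Dbp, an output gene of the clock, stood at 60.3 and 54.3 CPM in control, 1.61 and 1.46 in endotoxemic and 16.3 and 14.4 in LGK974 livers. Its LGK974 pair also lay between the others, at -1.90 ± 0.22 (SE, edgeR adjusted p = 0.000244) from control and 3.31 ± 0.28 (SE, edgeR adjusted p = 0.000544) from endotoxemic livers. Tef, of the same family, was closer to control, at -0.73 from control and 3.45 from endotoxemic livers. The core activator Arntl went below saline under the drug, at 3.75 and 2.84 CPM in control, 12.9 and 8.41 in endotoxemic and 0.597 and 1.53 in LGK974 livers, -1.60 ± 0.53 (SE, edgeR adjusted p = 0.0456) from control, whereas it was higher than control with LPS alone (1.70). Per2, a repressor, read 12.6 and 8.01 CPM in control, 1.36 and 1.46 in endotoxemic and 36.8 and 12.7 in LGK974 livers, without a call against control (1.27) and 4.12 ± 0.58 (SE, edgeR adjusted p = 0.00663) from endotoxemic livers. Nr1d1 and Nr1d2 differed, with Nr1d1 at -2.68 and Nr1d2 at -0.37 from control, the second without a call. Calls were lost for Arntl (edgeR adjusted p = 0.178 without control 1, 0.0911 without control 2, 0.0853 without endotoxemic 1, 0.0715 without endotoxemic 2 and 0.142 without LGK974 1) and Tef (edgeR adjusted p = 0.128 without control 1 and 0.0688 without control 2), and the change of Arntl is -2.43 without LGK974 2.

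**Figure D5:**
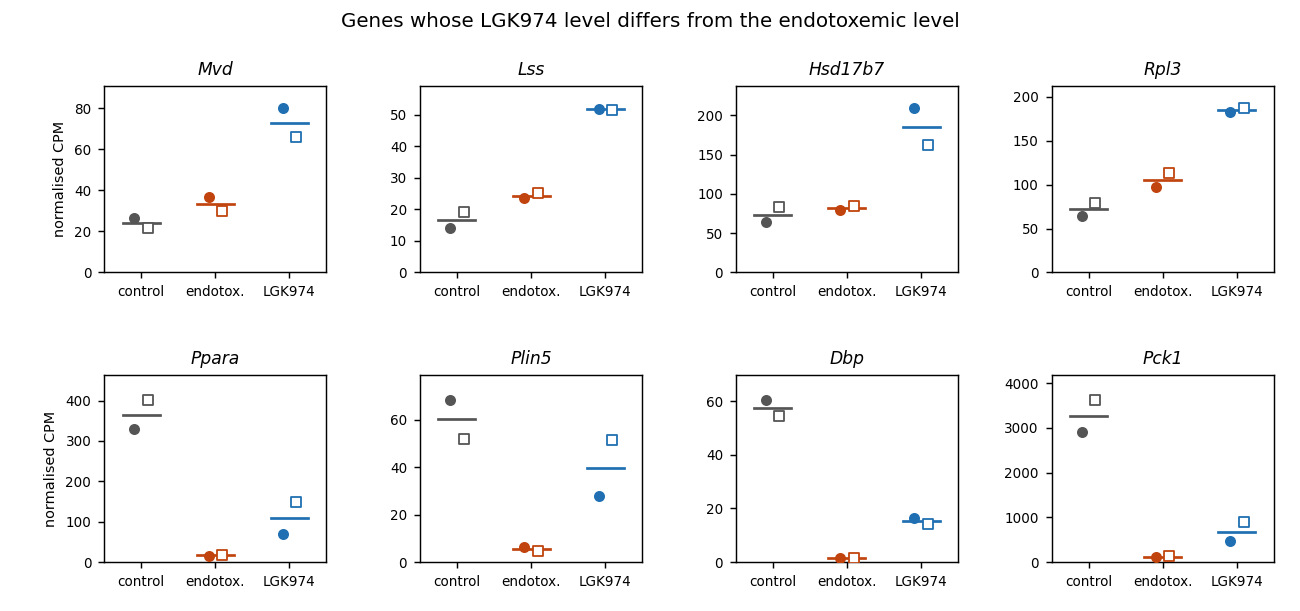
Normalised CPM in each library, by group, for Mvd, Lss, Hsd17b7 and Rpl3, in which both LGK974 libraries are the highest, and for Ppara, Plin5, Dbp and Pck1, in which the LGK974 libraries lie between control and endotoxemic means. Points are libraries and horizontal lines are group means of 2 libraries. Every gene shown differed between LGK974 and endotoxemic livers by the direct test.

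Many genes of the cytosolic ribosome were raised. Of 78 cytosolic ribosomal proteins 49 were higher and 0 lower than control, with a median of 0.7, against 16, 0 and 0.31 with LPS alone. In 72 of the 78 both LGK974 libraries were above both controls, and in 60 above both endotoxemic libraries. The share of all tested genes in either order was not counted. Only 1, Rpl3, passed the direct test. The rises number 16 without control library 1 and 14 without control library 2, while the median stays between 0.55 and 0.83 with any LGK974 or control library left out. Rpl3, at the peptidyl transferase center, stood at 64.3 and 79.5 CPM in control, 97 and 114 in endotoxemic and 182 and 187 in LGK974 livers, 1.36 ± 0.20 (SE, edgeR adjusted p = 0.000949) from control and 0.81 ± 0.20 (SE, edgeR adjusted p = 0.0458) from endotoxemic livers. Rps27 and Rps12 of the small subunit rose as well. Rps27 stood at 30.2 and 34.6 CPM in control and 81.3 and 97.3 CPM under the drug (1.46), and Rps12 at 42.2 and 48.5 CPM and 104 and 130.2 CPM (1.36). Ribosome biogenesis factors gave 28 higher and 0 lower of 56, with a median of 0.68 (36, 0 and 0.9 with LPS alone), and 10 higher with either control library left out. Nop58, a core protein of small nucleolar RNPs, and the large-subunit GTPase Gnl2 rose by 2.06 and 1.73. Mitochondrial ribosomal proteins gave 10 higher (13.2%, against 15.7% of all tested genes) and 4 lower of 76, with a median of 0.08, and 1 higher and 1 lower without control library 1 and 12 lower without LGK974 library 2.

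Oxidative phosphorylation gave 17 lower (23.3%, against 16.9% of all tested genes) and 1 higher of 73, with a median of -0.35. With LPS alone the figures were 34, 1 and -0.49. The falls number 6 without control library 1 and 4 without control library 2. Complex I subunits Ndufa6 and Ndufs7 changed by -1.35 and -1.15, and cytochrome c (Cycs) was the rise, by 0.59. Proteasome subunits gave 13 higher and 0 lower of 37, with a median of 0.52, and 3 and 2 higher without control library 1 and control library 2, and 7 with either endotoxemic library left out. The call on Cycs (edgeR adjusted p = 0.297 without control 1, 0.125 without control 2, 0.0912 without endotoxemic 1, 0.0909 without endotoxemic 2 and 0.0915 without LGK974 1) was lost.

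Stress programs remained raised in part. The unfolded protein response gave 14 higher and 2 lower of 31, with a median of 0.77 (20, 1 and 1.06 with LPS alone), and 8 higher with either control library left out. Manf, a secreted stress protein of the endoplasmic reticulum, read 113 and 131 CPM in control, 731 and 722 in endotoxemic and 665 and 327 in LGK974 livers (2.02 ± 0.31, edgeR adjusted p = 0.00121), and the chaperone Hspa5 rose by 1.05. The asparagine synthetase Asns, a target of Atf4, went from 0 and 8 reads in control to 14.8 and 18.6 CPM (5.60 ± 0.61, edgeR adjusted p = 0.000187). Without control 2 the change of Asns is 10.41, against 0 reads. The call was lost for Hspa5 (edgeR adjusted p = 0.0556 without control 1 and 0.148 without control 2), whose change is 0.65 without LGK974 1. Genes of p53 and growth arrest gave 10 higher and 2 lower of 22, with a median of 0.85, and 5 lower without LGK974 library 1 and 1 lower without control library 2. Cdkn1a, the cell cycle inhibitor p21, stood at 10.4 and 10.4 CPM in control, 522 and 466 in endotoxemic and 296 and 213 in LGK974 livers, 4.61 ± 0.25 (SE, edgeR adjusted p = 5.53e-06) from control and -0.96 ± 0.21 (SE, edgeR adjusted p = 0.0327) from endotoxemic livers. The cell death effector Bax rose by 3.21, while Bbc3, which encodes the death protein PUMA, changed by -1.73. Genes of the inflammasome, pyroptosis and necroptosis gave 8 higher and 2 lower of 18, with a median of 0.52, and 5 higher with any library but LGK974 2 left out. Of these Mlkl, the effector of necroptosis, and the pore-forming Gsdmd rose by 3.80 and 1.62. Without control 2 the change of Mlkl is 5.92. Cell division genes gave 6 higher (15.8%, against 15.7% of all tested genes) and 2 lower of 38, with 3 higher when either control library is left out and 5 lower without LGK974 library 2.

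Hypoxia and glycolysis genes gave 8 higher and 2 lower of 25, with a median of 0.62, and 6 lower with a median of 0.37 without LGK974 library 2. The angiogenic factor Vegfa was lower under the drug, at 84 and 66.3 CPM in control, 64.1 and 57.4 in endotoxemic and 21.7 and 22.8 in LGK974 livers. Both LGK974 libraries were below the other 4, -1.75 ± 0.21 (SE, edgeR adjusted p = 0.000299) from control and -1.45 ± 0.21 (SE, edgeR adjusted p = 0.00754) from endotoxemic livers. Heat shock proteins gave 8 higher and 4 lower of 31, with 3 higher and 1 lower without control library 1 and 9 higher and 9 lower without LGK974 library 2. Nrf2 targets and metallothioneins gave 9 higher and 7 lower of 30, with 4 higher without control library 2 and 4 lower without control library 1. The heat shock shares were 25.8% higher and 12.9% lower, against 15.7% and 16.9% of all tested genes. For the Nrf2 list they were 30% and 23.3%. The catalase gene Cat changed by -2.70 and the mitochondrial dismutase Sod2 by 2.02.

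Coagulation, complement and iron genes each gave more falls than rises. Coagulation and fibrinolysis gave 10 lower and 4 higher of 17, with a median of -1.05 (9, 4 and -0.79 with LPS alone). Factor V (F5), heparin cofactor II (Serpind1) and protein C (Proc) changed by -2.10, -3.28 and -1.84. Among the rises were the urokinase receptor Plaur (5.80), the protein Z-dependent inhibitor Serpina10 (2.54) and the fibrinolysis inhibitor Cpb2 (1.32). The call was lost for Cpb2 (edgeR adjusted p = 0.0848 without control 1), and the change of Plaur is 9.67 without control 2. Complement gave 9 lower and 3 higher of 23, with a median of -0.22, and 0 higher with either control library left out. The lectin Mbl2 and the C1q chain C1qc, a macrophage product, changed by -1.495 and -1.79. The falls number 4 without control library 2. Among 18 iron genes 6 were lower and 3 higher, and 5 higher without LGK974 library 1. Hemojuvelin (Hfe2), the coreceptor that raises hepcidin, stood at 87.8 and 88.9 CPM in control, 2.23 and 4.87 in endotoxemic and 26.7 and 70.3 in LGK974 livers, without a call against control (-0.86) and 3.77 ± 0.50 (SE, edgeR adjusted p = 0.00555) from endotoxemic livers. The iron exporter Slc40a1 stayed low (-3.35) and the importers Slc39a14 and Slc11a2 rose by 1.83 and 2.49. Of the iron genes 33.3% were lower and 16.7% higher, against 16.9% and 15.7% of all tested genes.

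In the growth hormone and Igf1 axis 8 genes were lower and 4 higher of 21, with 1 higher when either control library is left out and 7 without LGK974 library 2. Igfals, which stabilises Igf1 in plasma, stood at 99 and 106 CPM in control, 2.97 and 2.56 in endotoxemic and 7.76 and 5.65 in LGK974 livers (-3.94 ± 0.24, edgeR adjusted p = 1.09e-05). The 4 rises were major urinary protein genes, near-identical to each other and 3 of them on the male-biased list, of which Mup20 read 181 and 219.9 CPM in control and 2845 and 1385 CPM in LGK974 livers.

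The largest single changes included genes of the acute response and sex-biased genes. Among called genes whose libraries did not overlap and whose higher group had a mean of at least 10 CPM, the 10 largest rises from control were Npy, Car4, Ngp, Clec4e, Fgf23, Lincenc1, Irg1, Crybb3, E030018B13Rik and Serpina3i. The neuropeptide Npy had no count in the controls and read 57.4 and 62.1 CPM in endotoxemic and 61.4 and 70.6 CPM in LGK974 livers, at least 249-fold above control and with no call between the treated groups. The phosphate hormone Fgf23, also at 0 in the controls, read 49.5 and 61.3 CPM in endotoxemic and 18.7 and 13 CPM in LGK974 livers and was lower than in endotoxemic livers (-1.81 ± 0.27, edgeR adjusted p = 0.0119). Irg1 (Acod1), which makes itaconate in macrophages, read 69.2 and 80.4 CPM in endotoxemic and 19.4 and 9.17 CPM in LGK974 livers, lower than in endotoxemic livers (-2.39 ± 0.35, edgeR adjusted p = 0.0103). Crybb3, a crystallin, was higher in LGK974 library 1 than in any other (342 and 159 CPM, with 128 and 142 CPM in the endotoxemic libraries). Npy, Car4, Ngp, Clec4e, Fgf23, Lincenc1 and Irg1 had no count in the controls. They passed the filter on low counts only through the treated libraries and could not have fallen, and their rank depends on the prior count.

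By the same rule the 10 largest falls were Sult2a1, Sult2a5, Sult2a2, Sult3a1, Cyp2b13, Sult2a4, Ppp1r3g, Sult2a6, Cyp7a1 and Cyp2b9, and 8 of them, all but Ppp1r3g and Cyp7a1, are on the female-biased list. The sulfotransferase Sult2a1, one of a near-identical family, stood at 324 and 345 CPM in control, 30.6 and 29.2 in endotoxemic and 0 in both LGK974 libraries. Of the 40 tested female-biased genes 33 were lower and 1 higher than control, with a median of -5.19, and of 26 male-biased genes 13 were higher and 4 lower, with a median of 0.87 (0.32 without LGK974 library 1). Without control library 1 the male-biased rises number 7. In endotoxemic livers the female-biased list gave 33 lower and 1 higher with a median of -2.68, and the male-biased list 11 lower and 3 higher with a median of -0.58. Without the genes of both lists the next largest falls by that rule were Hsd3b2, G6pc, Slc17a4, Upp2 and Krt23, and the next largest rises A2m, Tm4sf20, Fam83a, Scara5 and Syt12. Leaving both lists out moved the median of complement genes from -0.22 to -0.54, the widest shift among the programs.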

How the data were processed

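Total RNA of mouse liver was extracted with Trizol and sequenced with a QuantSeq 3′ kit. The submitters' processing notes name Bowtie2, edgeR and the build mm10. The authors deposited read counts per gene for each library, not normalized. Gene rows were compared with RefSeq gene positions. Of 23134 rows with a position, 579 whose symbol lay over 2 Mb from its ordered neighbours were left out, as were 148 rows without one, among them 27 symbols turned into dates. Endotoxemic libraries 3 and 4 were identical to 1 and 2 and were joined with them. The 6 distinct libraries were fitted together in edgeR 4.0.16 (R 4.3.3) with filterByExpr, TMM factors from 0.9259 to 1.0566 and the quasi-likelihood test, with Benjamini-Hochberg adjustment over all tested rows (threshold 0.05). CPM values in the text are TMM-normalized. Fold changes of genes at 0 in control were set against a floor of 3 counts per library and cover counting error only. On simulated counts for LGK974 versus control (12257 genes, 200 changed by 2 on the log2 scale) the test recovered 74.5% of changed genes, and 9.1% of its calls were false.

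Gene lists and members were chosen with earlier results of these data known. Named genes are the 10 largest rises and falls among called genes without overlap and with at least 10 CPM in the higher group, up to 4 largest rises and falls of each list, the first 6 of each list, the genes the study names and Porcn. Some genes under that rule are not reported here. A further 53 list members, such as Ppara, Plin5, Hsd17b7, Cyp2e1, Irgm2 and F830016B08Rik, and the cell type markers were named after their values were seen. Alternatives were no filter or at least 10 counts in every library, upper-quartile scaling, DESeq2 1.42.0, the repeated row Rn45s left out, all rows kept, a limit of 10 Mb, only the libraries compared, identical libraries counted separately, a replicate block, sex chromosomes left out, sex-biased genes left out, and each library left out. One more, keeping only rows in the longest ordered chain, was chosen after seeing the data. Promoter windows came from RefSeq.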

Additional observations from a re-analysis of the deposited data

Results flagged for a closer look

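Y-linked genes lay outside the comparisons of autosomal genes, and they carried 2195 counts in LGK974 library 1 and 1775 counts in LGK974 library 2, against 0 and 2 in the control and 0 and 0 in the endotoxemic libraries. All libraries are labelled as male.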

How the results depend on the processing

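Against control, the LGK974 counts of 1853 higher and 2002 lower genes stayed within 1.5 times under every alternative other than leaving out a library, which gave 836 to 2394 higher and 1141 to 2552 lower. For endotoxemic livers the same step gave 1315 to 2987 higher and 1689 to 3276 lower. The direct comparison of the treated groups varied most. Its 329 higher and 330 lower genes became 848 and 740 with no filter, 512 and 507 with DESeq2, 100 and 157 with only the libraries compared and 1581 and 1437 with the identical libraries counted separately, and leaving out a library gave 23 to 1087 and 33 to 1014. The cause was not tested. Same-numbered libraries did not deviate together across all pairs of groups (correlations 0.14, -0.0096 and 0.058), so the numbers were taken as names, and a fit with the replicate block gave 1826 higher and 2028 lower. Of 201 named genes called against control 29 lost the call without a library, and 0 changed sign. Calls were also lost for 6 named genes with only the libraries compared, 3 with DESeq2, 2 with upper-quartile scaling, 2 with the replicate block, 1 with all rows kept and 1 with the identical libraries counted separately. Of 90 counts of higher or lower genes of a program, 38 and 42 moved by over 1.5 times without control library 1 and 2, 12 and 18 without LGK974 library 1 and 2, 8 and 9 without endotoxemic library 1 and 2, and 0 to 11 under each other alternative that gave these counts. Of the named genes without a call, 10 changed sign. Gm4951 read 0.051 with upper-quartile scaling, and Hnf4a 0.089 with it, 0.006 with no filter, 0.002 with only the libraries compared and 0.008 with the ordered chain alone. With a library left out Btrc ranged from -0.345 to 0.075, Ccnd1 from -0.082 to 0.998, Cmpk2 from -0.73 to 0.24, Ctnnb1 from -0.013 to 0.345, Dtx3l from -0.37 to 0.14, Egr1 from -0.30 to 0.43, Gm4951 from -0.59 to 0.38, Gsk3b from -0.02 to 0.086, Hnf4a from -0.17 to 0.16 and Trim21 from -0.18 to 0.36. Requiring 2 matches in place of 1 lowered the share of GTPase promoter windows with a GAS match to 9.09% (0.457% of all windows) and with an ISRE core match to 18.2% (0.624% of all windows), and the share of clock windows with an E-box to 3.7% (0.594% of all windows). A count of 3 amounts to 0.218 to 0.371 CPM, so differences below that level were not detectable at this depth.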
